A study of Mus musculus with 28 samples.

Results

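The endothelial surface and junction genes described here are 10 genes whose products mark most blood vessel endothelium: Cdh5, Pecam1, Cldn5, Esam, Icam2, Emcn, Clec14a, Mmrn2, Egfl7 and Ramp2. They were chosen by gene symbol, and all 10 were found among the 24015 genes of the deposited count table. RNA was sequenced from 28 samples, each of 100 sorted cells of a mouse embryo population, and the 9 populations were taken through the endothelial-to-hematopoietic transition, in which endothelial cells of the embryo give rise to blood stem and progenitor cells. Endothelial cells (EC) and hemogenic endothelium (HE, from which blood arises) were sampled on each of the days E8.5, E9.5 and E10.5. To these E9.5 adds a population labelled pro-HSC/HPC, and E10.5 adds pre-HSC I as well as pre-HSC II. HE of E8.5 has 4 libraries and each other population 3. HSC stands for hematopoietic stem cell and HPC for hematopoietic progenitor cell. Every library carries the genotype label 23GFP transgenic. The tissue is labelled PAS+VU on the first and second day and AGM+VU on the third. Tissue and age thus change together between E10.5 and either earlier day and cannot be told apart. How the cells were gated is not stated in the labels, and a gene whose product served as a gate would have a level set in part by the sort.

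Endothelial cells are held together by adherens junctions, built on VE-cadherin (the product of Cdh5), and by tight junctions, in which claudin-5 (Cldn5) is the main claudin of endothelium. PECAM-1 (Pecam1), ESAM (Esam) and ICAM-2 (Icam2) are immunoglobulin-family adhesion molecules of the endothelial contact zone and surface, and leukocytes and platelets carry some of them too. Blood cells that emerge from hemogenic endothelium leave the vessel wall, round up and give up endothelial contacts. The other members are surface or matrix proteins of vessels: endomucin (Emcn), a sialomucin, the lectin-like protein CLEC14A (Clec14a) and its matrix ligand multimerin-2 (Mmrn2), the secreted protein EGFL7 (Egfl7), and RAMP2 (Ramp2), which turns the receptor encoded by Calcrl into an adrenomedullin receptor.

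In the files' mm9 coordinates, Cdh5 lies on chromosome 8 at 106625525 to 106668402 in 12 exon intervals, and Pecam1 and Icam2 lie on chromosome 11 at 106515532 to 106576595 and 106238970 to 106243955. Cldn5 (chromosome 16, 18776940 to 18778355) and Clec14a (chromosome 12, 59365707 to 59370245) each have a single exon interval. Egfl7 (chromosome 2, 26436576 to 26448202) spans the microRNA genes Mir126 and Mir126b, which share none of its exons. Those 2 microRNA genes had at most 4 counts in a library. The libraries were made from polyA RNA, so these counts do not measure the mature microRNAs. No member shares an exon position with another gene of the table.

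Promoter sequence from RefSeq (GRCm38.p6) was at hand for 4 of the 10 members, Cldn5, Emcn, Egfl7 and Clec14a, which include the member that fell most in blood (Cldn5) and 3 whose profiles differ in the values that follow. Of the 250 bases before each start site, the 200 farthest from the start are shown 5′ to 3′ on the gene's strand, so that they end 50 bases before it. Capitals mark GGAA on either strand (written TTCC on the other), the core that ETS factors of endothelium and blood bind.
Cldn5, chr16:18776597-18776796, plus strand: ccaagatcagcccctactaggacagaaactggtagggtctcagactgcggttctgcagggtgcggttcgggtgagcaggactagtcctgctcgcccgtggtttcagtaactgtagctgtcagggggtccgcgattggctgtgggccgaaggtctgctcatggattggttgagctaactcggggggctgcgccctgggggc
Emcn, chr3:137340828-137341027, plus strand: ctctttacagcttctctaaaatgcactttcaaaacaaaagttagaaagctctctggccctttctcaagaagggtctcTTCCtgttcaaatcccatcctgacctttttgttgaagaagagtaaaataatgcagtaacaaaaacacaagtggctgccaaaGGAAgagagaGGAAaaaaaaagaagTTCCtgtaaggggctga
Egfl7, second of 3 listed starts, chr2:26583615-26583814, plus strand: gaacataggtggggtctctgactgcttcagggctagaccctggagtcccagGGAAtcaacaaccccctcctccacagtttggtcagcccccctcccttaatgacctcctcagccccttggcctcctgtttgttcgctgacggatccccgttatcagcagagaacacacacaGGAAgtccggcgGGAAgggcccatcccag
Clec14a, chr12:58269309-58269508, minus strand: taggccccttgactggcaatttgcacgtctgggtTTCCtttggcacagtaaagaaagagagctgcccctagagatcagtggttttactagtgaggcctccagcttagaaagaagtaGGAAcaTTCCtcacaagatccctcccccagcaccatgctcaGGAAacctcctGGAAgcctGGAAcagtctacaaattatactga
The window of Cldn5 held no GGAA on either strand, that of Emcn held 4, that of Clec14a 6, and the windows of the 3 Egfl7 starts held 3, 3 and 1. GGAA or TTCC occurred in 89.2% of the 32851 promoter windows of the same length, so most windows hold it. The longer AGGAAG on either strand, which contains the core, occurred in 23.9% of all windows and was found in those of Emcn and of 2 of the 3 Egfl7 starts, not in those of Cldn5 or Clec14a. Cldn5 had 61.5% G and C in its window, Clec14a 49.0% and Emcn 39.5%, against a median of 51.5% over all windows.

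Library totals ran from 16308918 to 31405603 counts over 13935 to 16050 genes with a count, and members were covered by at least 48 counts in every library. Levels are in CPM of TMM-scaled library sizes, listed in replicate order. Differences were tested in 1 edgeR quasi-likelihood fit of all 28 libraries, on 15238 genes that passed the filter on low counts, and a difference counted as called when its Benjamini-Hochberg adjusted p was under 0.05. All 10 members passed that filter. The sum of 7 hemoglobin genes stood apart in 3 libraries, at 12040 and 4017 CPM in pro-HSC/HPC replicates 2 and 3 and 1375 CPM in pre-HSC I replicate 3, against at most 25.5 CPM in the other libraries. In libraries of 100 cells, fewer cells with a transcript and less of it in each cell cannot be told apart.

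Summed over the 10 members, the level was highest in E10.5 HE, at 5001 CPM ± 416 (SD, n = 3), and lowest in pre-HSC II, at 462 CPM ± 61.0 (SD, n = 3). It was 2194.5 CPM ± 311 (SD, n = 3) in E8.5 EC and 2890.0 CPM ± 184 (SD, n = 4) in E8.5 HE. At E9.5 the sum was 2615 CPM in EC, 3640 CPM in HE and 2922 CPM in pro-HSC/HPC, and at E10.5 it was 3728 CPM in EC and 1753 CPM in pre-HSC I. Among single members, 6 had their highest mean in E10.5 HE, Cldn5 and Emcn in E10.5 EC, Cdh5 in E9.5 HE and Egfl7 in E8.5 EC. The lowest mean was that of pre-HSC II for 8 members and that of E8.5 EC for Emcn and Clec14a. EC of E8.5 thus held little of these 2 genes, at means of 33.8 and 7.83 CPM, and Mmrn2 was about as low as Emcn there, at 34.7 CPM. In HE of E8.5 the means were 276 CPM for Emcn, 54.9 CPM for Clec14a and 138 CPM for Mmrn2.

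**Figure D1:**
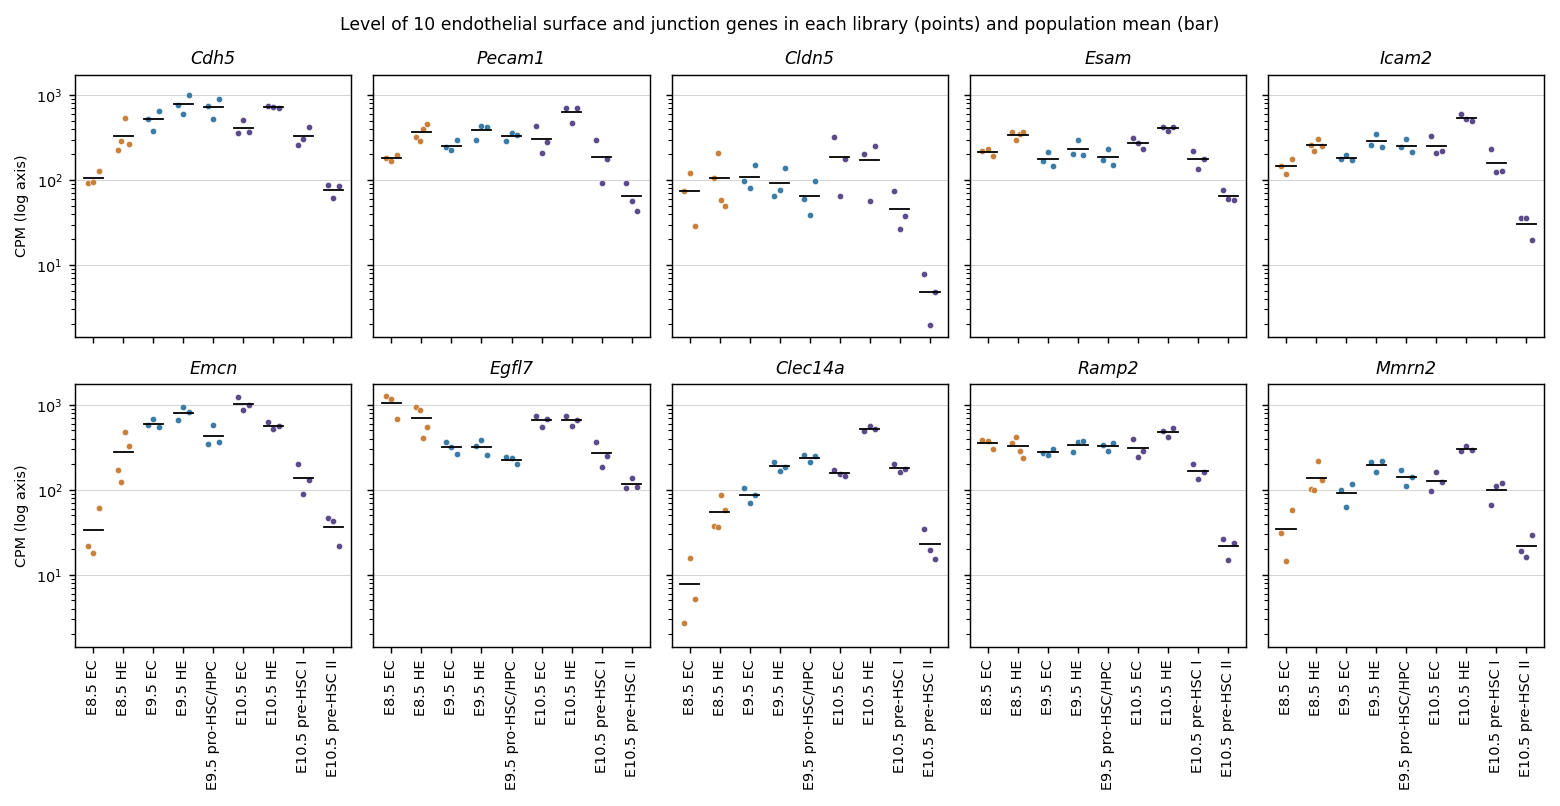
CPM of each member (log axis) in each of the 28 libraries, with points for libraries, bars for population means and colours for the embryonic day. Levels of all 10 genes drop from E10.5 HE through pre-HSC I to pre-HSC II, while Emcn and Clec14a start near 34 and 8 CPM in E8.5 EC and Egfl7 starts at its highest mean there.

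Per kilobase of exon, which allows genes to be compared, Egfl7 and Ramp2 led in E8.5 EC at 639.6 and 409 CPM per kb, and Clec14a was last at 1.73 CPM per kb. By E10.5 EC the first place had passed to Emcn at 709 CPM per kb. In E10.5 HE Ramp2 led at 555 CPM per kb, followed by Icam2 at 473 and Egfl7 at 404. In pre-HSC II Egfl7 was first again at 71.9 CPM per kb and Cldn5 last at 3.43.

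Among the adhesion genes of the contact zone, Cdh5 was at 91.4, 94.8 and 129 CPM in E8.5 EC and at 228, 289, 536 and 265 CPM in E8.5 HE. At E9.5 it was at 519.9, 383 and 652 CPM in EC, 756, 602 and 997 CPM in HE and 739, 521 and 898 CPM in pro-HSC/HPC. At E10.5 it was at 359, 509.8 and 372 CPM in EC, 739, 721 and 696 CPM in HE, 262, 302 and 419.9 CPM in pre-HSC I and 86.6, 60.8 and 84.2 CPM in pre-HSC II. Every HE library was thus above every EC library at E8.5 and E10.5, and the groups overlapped at E9.5. The 3 populations with the highest means, E9.5 HE, pro-HSC/HPC and E10.5 HE, overlapped each other, and pre-HSC II lay below all libraries of the other populations.

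Pecam1 was at 180.0, 168 and 199.7 CPM in E8.5 EC, 324, 287, 396 and 455 CPM in E8.5 HE, 248, 223 and 294 CPM in E9.5 EC and 298, 429 and 427 CPM in E9.5 HE. The pro-HSC/HPC libraries held 287, 358 and 343 CPM, E10.5 EC 432, 211 and 277 CPM, and E10.5 HE 696, 468 and 714 CPM. HE was above EC without overlap on each of the 3 days. In pre-HSC I it was at 293, 93.4 and 178 CPM and in pre-HSC II at 92.5, 56.3 and 43.6 CPM.

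Icam2, a ligand of leukocyte integrins, was at 147, 117 and 175 CPM in E8.5 EC and 258, 218, 303 and 250.01 CPM in E8.5 HE. At E9.5 EC had 176, 197 and 173 CPM, HE 258, 349.9 and 248 CPM and pro-HSC/HPC 243, 305 and 213 CPM. At E10.5 it was at 332, 209 and 221 CPM in EC, 597, 523 and 502 CPM in HE, 230.2, 124 and 127 CPM in pre-HSC I and 35.7, 35.4 and 19.8 CPM in pre-HSC II. Icam2 also separated HE from EC on all 3 days. Pecam1 and Icam2 had the most similar profiles of the 45 pairs of members (Pearson r = 0.99 of log2(CPM + 1) over 9 population means, a description without a test).

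Esam had the flattest profile, with a highest mean 6.28 times its lowest. Its means were 213 CPM ± 20.1 (SD, n = 3) in E8.5 EC, 344 CPM ± 32.1 (SD, n = 4) in E8.5 HE, 175 CPM ± 35.5 in E9.5 EC and 231 CPM ± 56.2 in E9.5 HE (SD, n = 3). It was at 311, 274 and 234 CPM in E10.5 EC, 418, 378 and 423 CPM in E10.5 HE, 218.5, 133 and 175 CPM in pre-HSC I and 75.8, 60.1 and 58.3 CPM in pre-HSC II. Cldn5 spread widely between replicates. It was at 321, 65.8 and 177 CPM in E10.5 EC and at 205, 56.4 and 251 CPM in E10.5 HE, so that the groups overlapped throughout, and at 7.77, 1.95 and 4.84 CPM in pre-HSC II.

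The spread of Cldn5 followed the replicate number within a day. Replicate 2 was the lowest in all 4 populations of E10.5, with 26.2 CPM in pre-HSC I and 1.95 CPM in pre-HSC II. Replicate 3 was the highest in all 3 populations of E9.5, at 149, 139 and 96.6 CPM. At E8.5, replicate 2 was the highest in both populations, at 119.9 and 206 CPM. In E8.5 replicate 3, Emcn, Cdh5, Pecam1, Icam2 and Mmrn2 stood above and Egfl7, Cldn5 and Ramp2 below their group means in EC and in HE alike. Emcn, for one, was at 61.4 CPM in EC replicate 3 against 21.9 and 17.9 CPM in the others, and at 483 CPM in HE replicate 3 against 124 to 325 CPM. The labels do not say what a number marks, and whether same-numbered libraries share a litter or a sort was not tested.

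**Figure D2:**
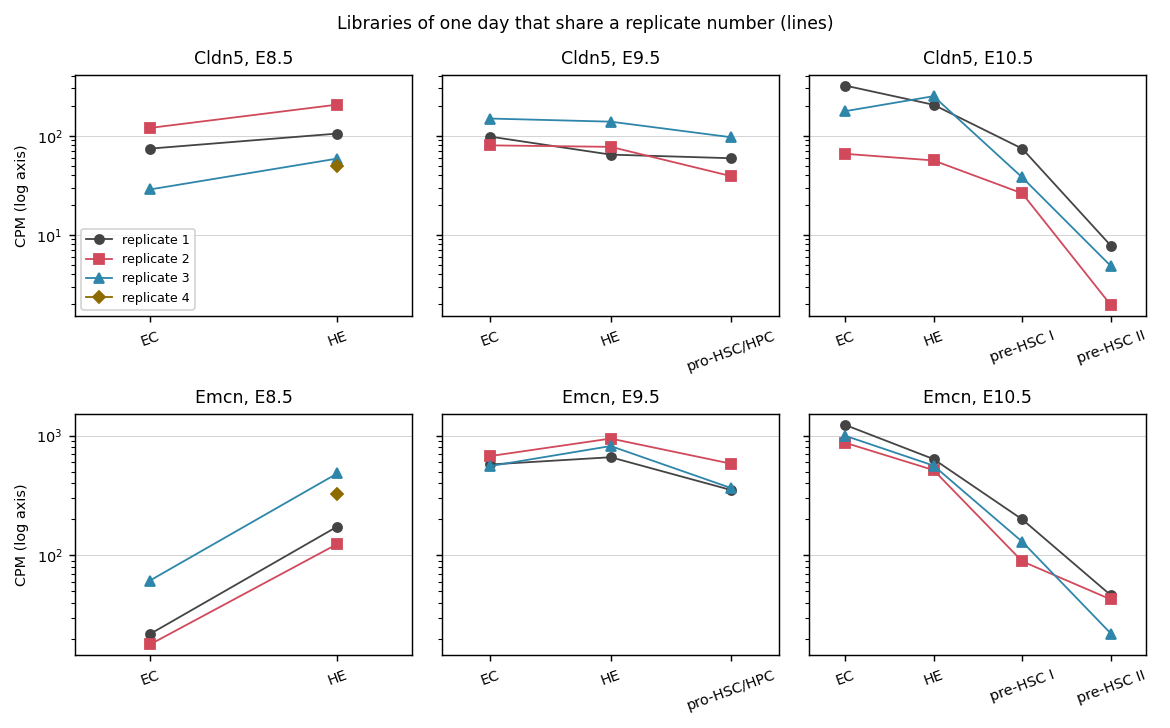
CPM of Cldn5 (top) and Emcn (bottom) on log axes for each day, with a line joining libraries of the same replicate number across populations. For Cldn5 the line of replicate 2 runs lowest through all 4 populations of E10.5, and for Emcn the line of replicate 3 runs highest at E8.5 while the step from EC to HE is similar along each line.

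Among the surface and matrix genes, Emcn was at 21.9, 17.9 and 61.4 CPM in E8.5 EC and at 173, 124, 483 and 325 CPM in E8.5 HE. At E9.5 it was at 574, 675 and 557 CPM in EC and 660.1, 946 and 819 CPM in HE. At E10.5 the order turned, with 1232, 874 and 999.96 CPM in EC and 637, 516 and 562 CPM in HE. HE was above EC without overlap at E8.5, overlapped it at E9.5 and lay below it without overlap at E10.5. The pro-HSC/HPC libraries held 351, 583 and 365 CPM, pre-HSC I 199, 88.9 and 129.7 CPM and pre-HSC II 46.2, 42.7 and 22.1 CPM.

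Clec14a was low in E8.5 EC, at 2.74, 15.6 and 5.14 CPM (68, 398 and 82 counts), and at 37.3, 37.0, 87.5 and 57.9 CPM in E8.5 HE. At E9.5 it was at 105, 69.5 and 87.0 CPM in EC, 215, 168 and 188 CPM in HE and 257, 214 and 249.9 CPM in pro-HSC/HPC. At E10.5 it was at 171, 155 and 147 CPM in EC and 493, 564 and 514 CPM in HE, then 202, 161 and 178 CPM in pre-HSC I and 34.3, 19.9 and 15.2 CPM in pre-HSC II. HE was above EC without overlap on each day, and Clec14a was the only member with a higher mean in pro-HSC/HPC than in E9.5 HE, at 126% of it, with overlapping libraries. Mmrn2, the gene of its ligand, was at 30.9, 14.6 and 58.5 CPM in E8.5 EC, 104, 101, 216 and 129.7 CPM in E8.5 HE, 97.7, 163 and 123 CPM in E10.5 EC and 286, 326 and 297 CPM in E10.5 HE. At E9.5 it was at 99.4, 62.7 and 116 CPM in EC, 214, 163 and 218 CPM in HE and 172, 110.1 and 142 CPM in pro-HSC/HPC, and later at 66.3, 111 and 120.6 CPM in pre-HSC I and 19.2, 16.4 and 29.5 CPM in pre-HSC II. Mmrn2 also separated HE from EC on all 3 days.

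Egfl7 had the profile least like the others. It was at 1263, 1169.7 and 687 CPM in E8.5 EC and 954, 873, 411 and 545 CPM in E8.5 HE, and fell to 361, 322 and 267 CPM in E9.5 EC and 328, 382 and 260.3 CPM in E9.5 HE. It stood at 745, 555 and 689.9 CPM in E10.5 EC and 739, 561 and 669.6 CPM in E10.5 HE, so that EC and HE overlapped on every day. It was at 242, 238 and 200.6 CPM in pro-HSC/HPC, 369.9, 186 and 250.1 CPM in pre-HSC I and 105, 137 and 109 CPM in pre-HSC II. Egfl7 made up 47.4% of the summed member level of EC at E8.5, 24.1% of that of HE, 7.77% of that of pro-HSC/HPC and 25.3% of that of pre-HSC II. Its correlation with the mean of the other 9 members was the lowest (Pearson r = 0.48 over 9 populations), and it held the lowest value of all 45 pairs, r = -0.11 with Clec14a. The median over the pairs was 0.76.

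Ramp2 held within a narrow band in the endothelial populations. Its means were 357 CPM ± 46.0 (SD, n = 3) in E8.5 EC, 324 CPM ± 81.4 (SD, n = 4) in E8.5 HE, and 276 CPM ± 22.0, 339.8 CPM ± 49.8 and 327 CPM ± 36.4 (SD, n = 3) in E9.5 EC, HE and pro-HSC/HPC. At E10.5 it was at 398, 242 and 284 CPM in EC, 496, 414 and 541 CPM in HE, 203, 133 and 163 CPM in pre-HSC I and 26.1, 15.0 and 23.8 CPM in pre-HSC II. Pre-HSC I and pre-HSC II lay below every library of the other populations, and E10.5 HE overlapped only E8.5 HE.

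The comparison of HE with EC of the same day addresses how hemogenic endothelium differs from the endothelium around it. At E8.5, 7 of the 10 members were called higher in HE than in EC, against 5.08% of all genes tested. Emcn rose by log2 3.04 ± 0.44 (SE, edgeR adjusted p = 5.51e-05), Clec14a by 2.80 ± 0.41 (adjusted p = 5.8e-05), Mmrn2 by 1.99 ± 0.37 (adjusted p = 0.000931) and Cdh5 by 1.65 ± 0.28 (adjusted p = 0.000402). Pecam1 (log2 1.00, adjusted p = 0.0462), Icam2 (0.82, 0.041) and Esam (0.69, 0.0402) passed by a small margin. In all, 7 members were higher in every HE library than in every EC library, as were 7.77% of all genes tested. The median log2 difference was 0.91 over the members and 0 over all genes. The remaining members were at log2 0.50 (Cldn5, adjusted p = 0.68), -0.14 (Ramp2, 0.781) and -0.58 (Egfl7, 0.191).

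Which members passed at E8.5 depended on single libraries and on the fit. The call of Pecam1 was lost without EC replicate 1, 2 or 3 or HE replicate 3 or 4 (adjusted p = 0.0758 to 0.125). That of Esam was lost without any E8.5 library but HE replicate 2 (0.0526 to 0.126), and that of Icam2 without EC replicate 1 or 2 or HE replicate 3 or 4 (0.0523 to 0.153). Fitted on the E8.5 libraries alone, 3 members were called and Clec14a (adjusted p = 0.0551), Esam (0.064), Mmrn2 (0.0685) and Icam2 (0.079) missed the threshold. Same-numbered libraries of E8.5 deviated together, and with the replicate number within the day as a block, in which HE replicate 4 has no partner and drops out, 9 members were called, while the genes called in all rose from 1038 to 2193. Cldn5 was then higher (log2 0.77, adjusted p = 0.0323) and Egfl7 lower (-0.52, adjusted p = 0.0417). With the number over all days as a block, 5 were called, and Esam (adjusted p = 0.0569) and Pecam1 (0.0801) were lost. Without the filter on low counts Esam was lost (0.0635). Marker sums of other cells moved with the day's comparison. The 8 mesonephros markers summed to 15.8 to 25.2 CPM in EC and 36.3 to 118 CPM in HE (Pax8 at 0 in HE). Of the 5 tested, Ret (log2 4.59) and Gata3 (1.74) were called higher, while the median was log2 -1.40. The 11 neural markers summed to 14.6 to 25.5 CPM in EC and 28.8 to 65.7 CPM in HE (Sox1, Tubb3, Sox10 and Foxd3 at 0 in HE). None of the 6 tested was called, at a median of log2 0.09. The sums of 13 mesenchyme and smooth muscle markers overlapped, at 50.5 to 73.2 and 37.8 to 82.9 CPM, with Tagln called higher. Their part in the result was not tested.

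At E9.5 no member was called between HE and EC, where 0.302% of genes were called in either direction. Member differences ran from log2 -0.22 (Cldn5) to 1.12 (Clec14a), with 4 of 10 at an unadjusted p under 0.05 and 0 called by DESeq2. The median was 0.51 over the members and -0.01 over all genes. Pecam1, Icam2, Clec14a and Mmrn2 were higher in every HE library than in every EC library, as were 7.78% of all genes tested. With the replicate number within the day as a block, Mmrn2 was called (log2 1.13, adjusted p = 0.0119). Some marker sums were higher in HE without overlap. Megakaryocyte and platelet markers summed to 152.7 to 259.7 CPM in HE and 15.8 to 50.5 CPM in EC (Vwf and Itgb3 called higher). Mesonephros markers summed to 95.6 to 148 and 39.9 to 47.5 CPM (Ret called). Blood markers summed to 147.5 to 176 and 104 to 130.5 CPM (Runx1 called). Myeloid markers separated too, with none called, and the other sums overlapped. The part of these lists was not tested.

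At E10.5, 2 members were called higher in HE, Clec14a (log2 1.73 ± 0.40 SE, adjusted p = 0.0114) and Icam2 (1.09 ± 0.26, adjusted p = 0.0148), where 2.11% of genes were called higher. In all, 7 members were higher in HE without overlap between libraries, as were 11.4% of all genes tested. Mmrn2 (log2 1.24, adjusted p = 0.0636), Pecam1 (1.03, 0.0817), Cdh5 (0.80, 0.146), Ramp2 (0.65, 0.151) and Esam (0.57, 0.167) did not pass, and Emcn was at -0.86 (0.319). Without EC replicate 3 neither call held (adjusted p = 0.0622 for Clec14a and 0.0882 for Icam2), and without EC replicate 2 that of Icam2 was lost (0.0889), while without EC replicate 1 Pecam1 was called (log2 1.35, adjusted p = 0.0435). With the replicate number within the day as a block, 8 members were called, Emcn lower (log2 -0.845, adjusted p = 0.00914) and the others higher. All genes called then rose from 530 to 1316. The summed level of 13 mesenchyme and smooth muscle markers was 26.3 to 410.0 CPM in EC and 229 to 978 CPM in HE, and that of 12 blood markers 73.1 to 154 CPM in EC and 219 to 268 CPM in HE, with none of either list at 0 throughout a group. Other lists separated HE from EC as well. Mesonephros markers were at 99.3 to 162 against 23.2 to 31.9 CPM (Pax2, Pax8, Lhx1 and Emx2 at 0 in HE, 2 of 8 called higher, Ret and Gata3). The 10 cardiac markers were at 27.8 to 178 against 11.3 to 12.8 CPM (Myh7, Nkx2-5 and Nppa at 0 in HE, 1 called, Tnni1). The 11 epithelium and endoderm markers, Sox17 among them, were at 58.0 to 98.1 against 19.1 to 29.6 CPM (Foxa1, Foxa2, Ttr and Spink3 at 0 in HE, none called). The 12 megakaryocyte and platelet markers were at 431 to 499.8 against 62.2 to 99.8 CPM (Gp1bb and Gp6 at 0 in HE, 2 called, Itgb3 and Vwf). Which cells carried these transcripts cannot be read from the sums. The part of these lists in the result was not tested.

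**Figure D3:**
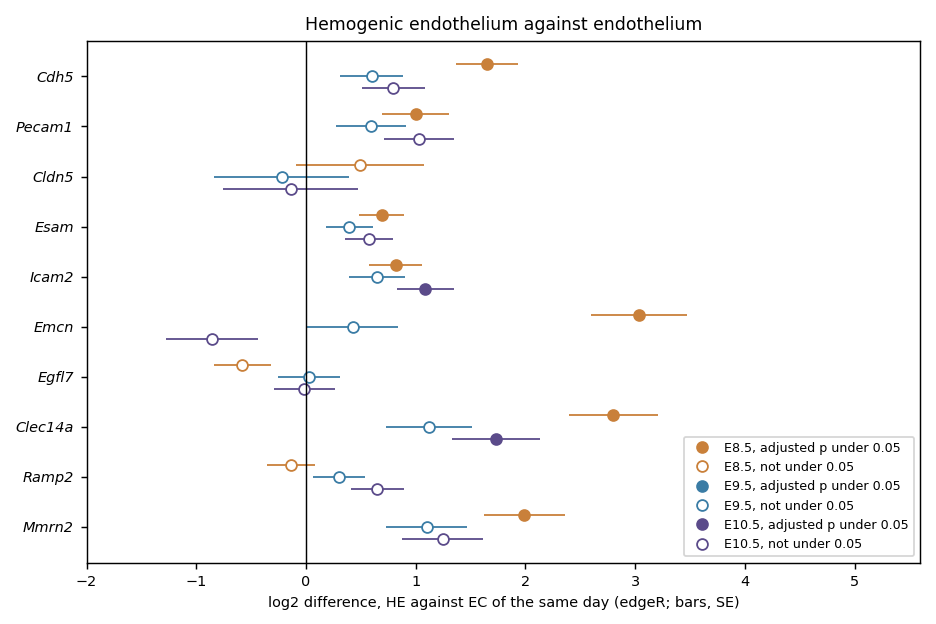
Log2 difference of HE against EC of the same day for each member (edgeR estimate, bars are SE), with colours for the 3 days and filled points for an adjusted p under 0.05. Emcn goes from 3.04 at E8.5 to -0.86 at E10.5, while Icam2 lies between 0.65 and 1.09 on the 3 days.

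The difference between HE and EC was itself compared between days. Emcn was the only member called, with a difference that was smaller at E9.5 than at E8.5 (log2 -2.61 ± 0.59 SE, adjusted p = 0.025), where 0.683% of genes were called lower. Between E10.5 and E8.5, a contrast added after the levels had been seen, Emcn differed by -3.89 ± 0.60 (adjusted p = 0.000243), where 2.11% of genes were called lower. The call at E9.5 was lost without E8.5 EC replicate 1 or 2, E8.5 HE replicate 3 or E9.5 HE replicate 1 or 3 (adjusted p = 0.0576 to 0.0761), in a fit of the compared populations alone (0.103) and with the replicate number over all days as a block (0.0532), and the call at E10.5 held without any single library. Without E8.5 EC replicate 2, which held the most Clec14a of its group, Clec14a was called in both contrasts (log2 -2.70, adjusted p = 0.00205, and -2.10, 0.00807). With the within-day block, Cdh5 was also called at E9.5 against E8.5 (log2 -1.06, adjusted p = 0.0297). From E9.5 to E10.5 no member was called, where 0.0131% of genes were, with 1 member (Emcn, log2 -1.28) at an unadjusted p under 0.05 and 0 called by DESeq2.

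Comparisons between days follow each population with age, and from E9.5 to E10.5 with tissue as well. From E8.5 to E9.5, EC gained Emcn (log2 4.16 ± 0.48 SE, adjusted p = 1.41e-06), Clec14a (3.47 ± 0.43, adjusted p = 4.97e-06), Cdh5 (2.30 ± 0.30, adjusted p = 9.09e-06) and Mmrn2 (1.42 ± 0.37, adjusted p = 0.00849), where 10.1% of genes were called higher. Egfl7 fell by 1.71 on the log2 scale (adjusted p = 0.000218), where 9.56% of genes were called lower. These 5 calls held without any single library and in every other fit that was tried. Mesenchyme and smooth muscle markers were higher beside them, with sums of 50.5 to 73.2 CPM at E8.5 and 90.8 to 629 CPM at E9.5 (5 of 13 called higher: Tagln, Acta2, Col3a1, Lum and Postn), and neural markers summed to 14.6 to 25.5 CPM and 56.2 to 154 CPM (1 of 11 called, Nes; Sox10 and Foxd3 at 0 in E9.5 EC). Their part in the change was not tested.

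In HE, 4 of these 5 genes were called from E8.5 to E9.5, all but Mmrn2 (log2 0.53, adjusted p = 0.363). Clec14a rose by log2 1.79 ± 0.36 (SE, adjusted p = 0.00441), Emcn by 1.55 ± 0.39 (adjusted p = 0.0168) and Cdh5 by 1.25 ± 0.27 (adjusted p = 0.0063), where 2.97% of genes were called higher, and Egfl7 fell by 1.11 on the log2 scale (adjusted p = 0.0147), where 3.58% were called lower. The mesenchyme and smooth muscle sums of HE were 37.8 to 82.9 CPM at E8.5 and 309.5 to 469 CPM at E9.5 (2 of 13 called higher), and their part was not tested. Without E9.5 HE replicate 3 the calls of Cdh5 (adjusted p = 0.0577), Emcn (0.0579) and Egfl7 (0.123) were lost. Without E8.5 HE replicate 1 those of Emcn (0.0712) and Egfl7 (0.08) were lost, and without E9.5 HE replicate 1 that of Egfl7 (0.0691). Fitted on the compared libraries alone, 2 of these 4 were called, with Emcn at 0.0534 and Egfl7 at 0.0628, and without E9.5 HE replicate 2 Esam was called lower (log2 -0.77, adjusted p = 0.043).

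From E9.5 to E10.5, Esam (log2 0.82), Icam2 (0.92), Egfl7 (1.02) and Clec14a (1.46) were called higher in HE at adjusted p = 0.0331 to 0.0433, where 1.49% of genes were called higher. Each of these 4 calls was lost without at least 5 of the 6 libraries taken singly, with adjusted p up to 0.213, and only E9.5 HE replicate 2 could be left out without losing Esam and Icam2. In EC no member was called between E9.5 and E10.5, where 0.761% of genes were called, with 3 members at an unadjusted p under 0.05 and 2 called by DESeq2. Egfl7 was at log2 1.06 there (adjusted p = 0.0747) and Emcn at 0.78 (0.445).

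The step from HE to the earliest blood-labelled population of the same day addresses how the members change as blood cells form. At E9.5 the pro-HSC/HPC libraries kept most of the members' RNA, with means at 53.6% (Emcn) to 126% (Clec14a) of those in HE and a median of 83.1%. Emcn and Egfl7 were lower in every pro-HSC/HPC library than in every HE library, as were 6.86% of all genes tested. No member was called, where 0.656% of genes were called in either direction, with 1 member (Emcn, log2 -0.90) at an unadjusted p under 0.05 and 0 called by DESeq2. With the within-day block Emcn was called (log2 -0.92, adjusted p = 0.0185). The 12 blood markers summed to 147.5 to 176 CPM in HE and 602 to 642 CPM in pro-HSC/HPC, with none at 0 throughout either group. Leaving out the hemoglobin-rich libraries keeps 1 pro-HSC/HPC library, whose spread is then borrowed from the remaining groups. That fit called 0 members and 24 genes in place of 100, and says little about the members.

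At E10.5, 9 of 10 members were lower in pre-HSC I than in HE, where 3.8% of genes were called lower. Emcn fell by 2.04 on the log2 scale (SE 0.43, adjusted p = 0.00382), Icam2 by 1.75 (0.26, 0.000137), Pecam1 by 1.73 (0.33, 0.0013), Ramp2 by 1.54 (0.24, 0.00021) and Esam by 1.21 (0.22, 0.00088). Mmrn2 (-1.61), Clec14a (-1.54), Egfl7 (-1.29) and Cdh5 (-1.13) were called too, at adjusted p = 0.00524 to 0.0162. Cldn5 was at log2 -1.89 (adjusted p = 0.0735), and without HE replicate 2 it was called (log2 -2.31, adjusted p = 0.0403). It was the only member whose libraries overlapped, while 12.4% of all genes tested were lower without overlap. The member median was -1.57 and that of all genes 0.01. Without pre-HSC I replicate 2 the calls of Cdh5 (adjusted p = 0.0814), Egfl7 (0.0566) and Clec14a (0.0841) were lost. That of Cdh5 was also lost without pre-HSC I replicate 1 (0.0691), and that of Clec14a without pre-HSC I replicate 3 (0.0589) or HE replicate 2 (0.0524).

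From pre-HSC I to pre-HSC II all 10 members fell, where 4.28% of genes were called lower. No library of pre-HSC II reached the lowest of pre-HSC I for any of them, as held for 9.94% of all genes tested. Cldn5 fell by 3.24 on the log2 scale (adjusted p = 0.00283), Clec14a by 2.96 (2.06e-05), Ramp2 by 2.94 (3.26e-08), Icam2 by 2.40 (9.94e-07) and Cdh5 by 2.09 (2.43e-05). Egfl7, at -1.20 (0.00927), and Esam, at -1.44 (5.75e-05), moved least. Without pre-HSC II replicate 3 the calls of Emcn (adjusted p = 0.0597) and Egfl7 (0.0552) were lost. Egfl7 also lost its call without pre-HSC I replicate 1 (0.103) or pre-HSC II replicate 1 (0.0565).

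Over both steps, pre-HSC II against HE, all 10 fell, where 12.7% of genes were called lower, and every call held without any single library. The log2 difference was largest in size for Cldn5 (-5.13 ± 0.74 SE, adjusted p = 7.23e-06), Clec14a (-4.50 ± 0.45, 1.77e-08), Ramp2 (-4.48 ± 0.27, 1.66e-11) and Icam2 (-4.16 ± 0.29, 6.28e-11). It was smallest for Esam (-2.65 ± 0.23, 1.76e-09) and Egfl7 (-2.49 ± 0.30, 3.94e-07). As a share of the HE mean, 24.4% to 45.7% remained in pre-HSC I (median 33.6%) and 2.84% (Cldn5) to 17.8% (Egfl7) in pre-HSC II (median 6.82%). The blood markers summed to 219 to 268 CPM in HE, 898 to 1250.0 CPM in pre-HSC I and 1656 to 1830.0 CPM in pre-HSC II, with 10 of 12 called higher against HE. Marker sums of other cells were lower beside the members. Mesenchyme and smooth muscle markers summed to 229 to 978 CPM in HE, 147 to 481 CPM in pre-HSC I and 49.8 to 62.4 CPM in pre-HSC II (6 of 13 called lower against HE). Cardiac markers summed to 27.8 to 178, 15.6 to 32.5 and 4.51 to 11.02 CPM in the same order (4 of 10 called lower, 5 of 10 at 0 in pre-HSC II), and mesonephros markers to 99.3 to 162, 43.5 to 57.2 and 11.6 to 17.0 CPM (2 of 8 called lower and 1 higher). Their part in these shares was not tested.

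**Figure D4:**
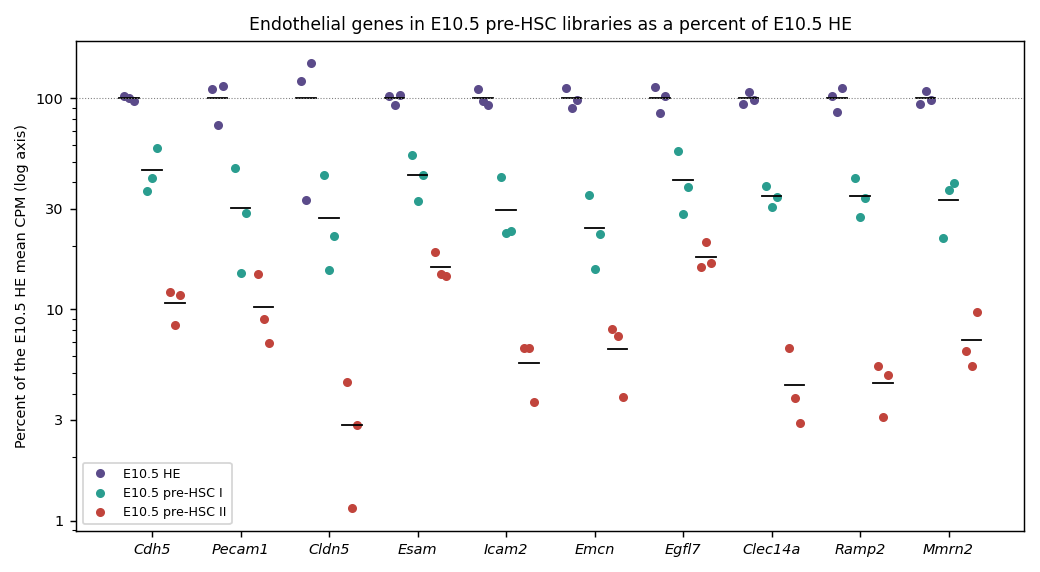
CPM of each member in the libraries of HE at E10.5 and both pre-HSC populations as a percent of the HE mean (log axis), with points for libraries and bars for means. Means run from 24.4% to 45.7% in pre-HSC I and from 2.84% for Cldn5 to 17.8% for Egfl7 in pre-HSC II.

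Whether the step at E10.5 (pre-HSC I minus HE) differed from that at E9.5 (pro-HSC/HPC minus HE) was tested directly. All 10 estimates were lower at E10.5, from log2 -0.78 (Egfl7) to -1.88 (Clec14a), with a median of -1.25 against -0.04 for all genes. None passed at adjusted p, where 0.0722% of genes were called, with Icam2 and Ramp2 nearest (adjusted p = 0.0736 each). In all, 7 members had an unadjusted p under 0.05, and DESeq2 called 2. The number over all days as a block gave 1 call. The within-day block called 9 of 10, all but Egfl7 (adjusted p = 0.0633), with Ramp2 at log2 -1.51 (0.00029) and Icam2 at -1.64 (0.000537), while the genes called in all rose from 11 to 527. The numbers were taken to pair the E9.5 libraries of this contrast but did not meet the criterion for pairing in those of E10.5. Without pre-HSC I replicate 1, Icam2 (adjusted p = 0.00971), Ramp2 (0.0354) and Pecam1 (0.0393) were called. The 2 blood populations have different labels, so that age, tissue and kind of cell change together in this contrast.

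Partners of the members were read from lists of junction, receptor and endothelial genes. Of the 15238 genes tested, 1038 were called in either direction for HE against EC at E8.5, 46 at E9.5 and 530 at E10.5. Against E10.5 HE, 1049 were called for pre-HSC I and 3267 for pre-HSC II. Of 22 adherens junction partners, 5 rose in HE at E8.5, 8 fell and 1 rose from E10.5 HE to pre-HSC I, and 18 fell and 1 rose from HE to pre-HSC II. In the last comparison Akap12 (log2 -3.28, a scaffold of kinase A), Pvrl2 (-4.29, nectin-2), Ctnna1 (-2.41, alpha-catenin) and Mllt4 (-2.77, afadin) had the smallest p. The list median was -2.20 there and that of all genes 0.02. At E8.5 the called partners were led by Ptprb (log2 2.63), the endothelial phosphatase that binds VE-cadherin.

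Of 18 tight junction genes tested, 3 rose in HE at E8.5, 1 at E9.5 and 5 at E10.5, where 1 fell. Ocln, the gene of occludin, was called on all 3 days, at log2 1.67, 1.84 and 3.44, and fell again by 2.16 on the log2 scale from E10.5 HE to pre-HSC II. It was at 8.38, 12.8 and 10.2 CPM in E10.5 EC and 94.3, 142 and 104 CPM in E10.5 HE. Cldn5 was called on none of the 3 days. Tjp1, which encodes the scaffold ZO-1, fell by 4.32 on the log2 scale from HE to pre-HSC II, where 6 of the 18 tight junction genes fell.

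Among the lectin and multimerin genes related to Clec14a and Mmrn2, Cd93, whose product also binds multimerin-2, rose in HE at E8.5 by log2 2.86 and fell by 2.13 on the log2 scale from E10.5 HE to pre-HSC II. It was at 1471, 1657 and 1535 CPM in E10.5 HE and 396, 374 and 294 CPM in pre-HSC II. Mmrn1, the related multimerin, went the other way at E10.5, at 136.8, 104 and 89.0 CPM in EC and 17.6, 4.08 and 14.7 CPM in HE (log2 -3.18). Of 27 other endothelial genes, 13 rose in HE at E8.5, none at E9.5 and 1 at E10.5, where 1 fell. From E10.5 HE, 15 of the 27 fell to pre-HSC I and 23 to pre-HSC II, led by Stab1 (log2 -5.74), She (-3.06), Mcam (-6.17) and Tek (-3.04) by p.

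The genes of the receptor complex of Ramp2 moved in different directions. Calcrl, the gene of the receptor itself, was at 194, 207 and 639.9 CPM in E8.5 EC, 1297, 1153 and 875 CPM in E10.5 EC and 4914, 3581 and 3752 CPM in E10.5 HE. It was higher in HE than in EC at E8.5 (log2 1.67) and E10.5 (1.88), and fell by 2.03 on the log2 scale from HE to pre-HSC II, where it was still at 1259, 856 and 875 CPM. Ramp1, which pairs with the same receptor to bind calcitonin gene-related peptide, had 0, 1 and 1 counts in the E10.5 HE libraries, 39, 94 and 71 in pre-HSC I and 315, 330 and 171 in pre-HSC II. The depth-scaled ratio of pre-HSC II to HE was 404 (95% counting interval 111 to 3340, which covers counting error only). In pre-HSC II Ramp1 was at 12.1, 13.4 and 8.19 CPM beside Ramp2 at 26.1, 15.0 and 23.8 CPM. Ramp1 was also at 2.86 CPM in E10.5 EC replicate 3 and at or near 0 in the other EC, HE and pro-HSC/HPC libraries. Ramp3 had 0, 65 and 6 counts in the HE libraries of that day and 0 in each pre-HSC II library, so that 1 HE library held most of its counts and another was at 0 as well.

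**Figure D5:**
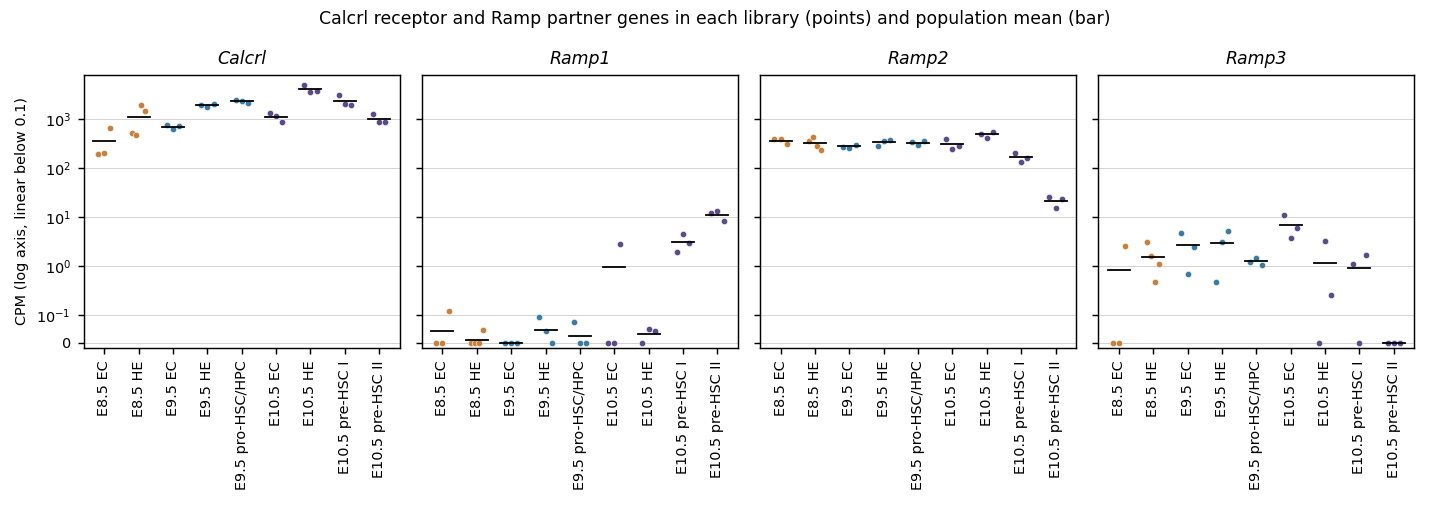
CPM of Calcrl, Ramp1, Ramp2 and Ramp3 in each of the 28 libraries (points; bars are population means) on a log axis that is linear below 0.1. Ramp1 is seen in every pre-HSC I and pre-HSC II library, at 1.97 to 13.4 CPM, while Ramp2 drops to 15.0 to 26.1 CPM in pre-HSC II.

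Of 17 leukocyte adhesion genes tested, 6 rose and 4 fell from E10.5 HE to pre-HSC II, where 3267 of all 15238 genes were called in either direction. Mfge8 (log2 -2.92), Cd47 (2.67), Itga4 (2.43) and Madcam1 (-5.51) had the smallest p. Itgam, the gene of an integrin chain that binds ICAM-2, was singled out after its values were seen. Its counts summed to 11 in HE and 1385 in pre-HSC II, while Icam2 itself fell. Itgal, the gene of the other chain that binds ICAM-2, was at 5.01, 0 and 0 CPM in HE, 3.74, 5.67 and 0.211 CPM in pre-HSC I and 2.45, 1.51 and 1.15 CPM in pre-HSC II, with overlapping libraries. The partner chain gene Itgb2 was at 2.67, 0.0491 and 2.37 CPM in HE, 9.44, 10.8 and 8.99 CPM in pre-HSC I and 14.4, 19.97 and 21.3 CPM in pre-HSC II.

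The genes whose population means ran closest to the mean of the 10 members, by Pearson correlation of log2(CPM + 1) over 9 populations among 9230 genes, were Aplp2 (r = 0.99), Msn (0.99), St6gal1 (0.98), Cd38 (0.98), Plxnd1 (0.98), Tjp1 (0.98), Ddah1 (0.98), Efna1 (0.98), Mmp14 (0.98) and Fblim1 (0.98). The values are a description without a test. Only Tjp1 of the 10 stood on a list used here. Aplp2 was at 478 CPM ± 107 (SD, n = 3) in E10.5 HE and 71.7 CPM ± 17.7 in pre-HSC II, and St6gal1, the gene of a sialyltransferase, at 44.6 CPM ± 6.57 and 0.371 CPM ± 0.348.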

How the data were processed

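RNA-seq libraries of 100 cells were made with the SMARTer Ultra Low Input kit from polyA RNA, per the labels' protocols. The authors deposited raw counts per gene symbol for 28 libraries and, per the file headers, mm9 positions and the exon length of each gene (in bases), which gave levels per kilobase. The submitters' processing notes name the build mm9 and TopHat, SAMtools, Subread and featureCounts 1.6.2. How strand and multiply matched reads were handled, and which annotation release was used, is not stated there. All count columns matched a library by name, and no row lacked a gene.

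Groups and replicate numbers came from the labels. The series text calls the replicates biological but does not say which embryos or litters they came from, so p-values measure the spread between these samples. No pair of replicates matched within sampling noise. In R 4.3.3, edgeR 4.0.16 scaled libraries by TMM, kept genes by filterByExpr with a minimum count of 10, and fitted all 28 libraries in 1 quasi-likelihood model of the 9 populations (common biological coefficient of variation 0.563). The procedure was tried on 1 set of simulated counts, for E10.5 HE against EC. Of 68 genes changed 2-fold 30.9% were called, and of 66 changed 4-fold 98.5%. Of 159 calls 7 were false. Differences near 2-fold can thus be missed often. Alternatives were DESeq2 1.42.0, its size factors, no filter, only the populations compared, a replicate block, and leaving out each library or the hemoglobin-rich ones. Members, partner lists and marker lists were chosen with earlier results of these data known. All members are named. Of each list the counts called and up to 4 called genes with the smallest p are named, and the 10 most alike genes were ranked among those averaging 10 CPM or more in some population, leaving out unnamed gene models, small RNAs and pseudogenes.

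Same-numbered libraries of a day were compared by the correlation of their deviations from the group means. The 30 such pairs ran from 0.027 to 0.406 (median 0.178). Pairs of the same day with different numbers ran from -0.407 to 0.191 (median -0.122). Every pair was over 0.1 for EC and HE at E8.5 (0.174 to 0.215), EC and HE at E9.5 (0.105 to 0.279) and HE and pro-HSC/HPC at E9.5 (0.135 to 0.344). The numbers were taken to pair these libraries as a working choice, from the data and not from the labels. Pairs with different numbers reached 0.191, so a value over 0.1 does not by itself mark a pair. Deviations from a group mean cancel out within the group, so the ranges for same and different numbers are not independent. The block by number within the day was added after this was seen.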

Additional observations from a re-analysis of the deposited data

Results flagged for a closer look

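The difference of Emcn between HE and EC changed with the day, and in contrasts with E10.5 the tissue changes as well. It was log2 3.04 at E8.5, 0.42 at E9.5 and -0.86 at E10.5, and the test of the change gave -2.61 for E9.5 against E8.5 (edgeR adjusted p = 0.025) and -3.89 for E10.5 against E8.5 (adjusted p = 0.000243, in a contrast added after the levels were seen). In the libraries, Emcn was higher in 4 of 4 HE libraries than in any EC library at E8.5, as were 7.77% of all genes. It was lower in 3 of 3 at E10.5, where 8.96% of all genes lay lower without overlap. The E10.5 difference itself was not called in the main fit (adjusted p = 0.319). With the replicate block within the day it was called (log2 -0.845, adjusted p = 0.00914). Over its alternatives the E10.5 change stayed called, while that of E9.5 lost its call in several.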

How the results depend on the processing

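Of 53 calls of a member in a comparison, none reversed under any alternative. All 53 held with DESeq2 and with its size factors, 35 held without any single library, and 33 held under every alternative. Mean levels moved by less than 1 SD with the size factors of DESeq2. Leaving out a single library of such small groups cannot move a mean by 1 SD, so it does not test the levels. All 10 calls of pre-HSC II against HE and all 5 of E9.5 against E8.5 EC held under every alternative.

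Counts of members called that moved by more than 1.5 times were these. Fitted on the compared populations alone, 3 were called for E8.5 HE against EC, 1 for E9.5 HE against EC, 1 for E10.5 against E9.5 EC, 2 for E9.5 against E8.5 HE, 0 for the change of HE minus EC from E8.5 to E9.5 and 2 for the blood step of E10.5 against E9.5. DESeq2 called 4 for E10.5 HE against EC, 2 for E10.5 against E9.5 EC and 2 for the blood step, and 4 were called for E10.5 HE against EC without the filter on low counts. With the replicate number over all days as a block, 4 were called for E10.5 HE against EC, 1 for E10.5 against E9.5 EC, 0 for the change of HE minus EC from E8.5 to E9.5 and 1 for the blood step.

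With the replicate block within the day, added after the data were seen, counts were 8 for E10.5 HE against EC (all genes called rose from 530 to 1316), 1 for E9.5 HE against EC (46 to 168), 1 for pro-HSC/HPC against HE (100 to 218), 9 for the blood step (11 to 527), and 2 and 3 for the change of HE minus EC from E8.5 to E9.5 (129 to 298) and to E10.5 (455 to 917). In E10.5 the correlations of same-numbered pairs were 0.082 to 0.264 for EC and HE and 0.085 to 0.266 for HE and pre-HSC I. Not every pair was over 0.1, so the numbers were not taken to pair those libraries. Every pair was above 0, however, and whether the E10.5 libraries are paired was left undecided.

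Leaving out each library gave 4 to 7 members for E8.5 HE against EC, 0 to 3 for E10.5 HE against EC, 1 to 5 for E9.5 against E8.5 HE, 0 to 2 for E10.5 against E9.5 HE, 0 to 1 and 1 to 2 for the change of HE minus EC from E8.5 to E9.5 and to E10.5, and 0 to 3 for the blood step. The cause of these moves was not tested.

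Genes called over the whole table moved too: for E8.5 HE against EC from 1038 to 191 on the compared populations alone and 2193 with the within-day block. Libraries of 100 cells and groups of 3 or 4 limit what small differences could be detected.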
